A study of Mus musculus with 9 samples.

Results

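The fibroblast growth factor (FGF) genes described here are 4 ligands, Fgf2, Fgf7, Fgf10 and Fgf18, and 3 receptors, Fgfr1, Fgfr2 and Fgfr3. They were taken by symbol from the tables of linear RNA, where they are 7 of 31405 genes, and each was found once. The RNA came from mouse bone marrow mesenchymal stem cells, a commercial stock at passage P1, cultured for 7 days under 3 conditions with 3 libraries each. C2S cultures received dicalcium silicate, a calcium silicate ceramic, in osteogenic medium. OM cultures received osteogenic medium alone, which holds dexamethasone at 100 nM, ascorbic acid at 0.2 mM and β-glycerophosphate at 10 mM. PM cultures were in proliferation medium, a serum-containing DMEM in which the stock had also been expanded. The labels list several doses of the silicate without tying one to the sequenced cells. They do not say that the 3 libraries of a group were separate cultures, so the p-values measure the spread between these libraries, which may be technical.

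Between 29581592 and 38764011 reads per library lay behind the linear values, as recovered from the values themselves, and libraries of a group correlated across genes at r = 0.988 to 0.995. Of the 11 stromal markers listed, 8 in C2S, 8 in OM and 10 in PM were at 1 FPKM or more in each library of the group, with Pdgfra between 110 and 146 FPKM in the 9 libraries. These markers were not steady. Of the 10 tested, 2 were higher (Ly6a and Vim) and 7 lower in OM than in PM (90%, against 54.8% of all genes). Eng and Nt5e reached 1 FPKM, the level needed for testing, only in PM, and without them 2 were higher and 5 lower. Col1a1 was at 25.8 ± 4.13 FPKM in C2S, 29.9 ± 3.31 in OM and 98.6 ± 8.10 in PM. Col1a2 was at 311 ± 6.21, 347 ± 36.8 and 977 ± 36.2 in C2S, OM and PM. Prrx1 averaged 53.1 ± 2.07 FPKM in C2S, 50.3 ± 4.03 in OM and 91.3 ± 4.61 in PM (SD, n = 3 each), and the part of these shifts in the FGF results was not tested. Thy1 (0.535 to 1.21 FPKM), Eng (0.406 to 1.39) and Nt5e (0.482 to 2.92) were low, and the leukocyte marker Ptprc was at 0.00900 FPKM or less. Of the 8 osteoblast markers listed, Sp7, Bglap and Ibsp did not exceed 0.135 FPKM in any library, Dmp1 0.126 or Phex 0.282. Runx2 was at 3.63 to 6.44 FPKM, Alpl at 6.81 to 15.6 and Spp1 at 12.6 to 211. FPKM counts fragments corrected for the length of the transcript and the size of the library. The values fit a correction by the longest annotated transcript of each gene. Levels of different genes can therefore be set beside each other only as far as that transcript is the one expressed.

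Most FGFs are secreted signals that bind receptor tyrosine kinases together with heparan sulfate on the cell surface. The activated receptors recruit adaptor proteins such as FRS2 and act largely through the RAS-ERK cascade, which in turn induces its own inhibitors of the Sprouty and DUSP families. In the skeleton, FGF2 and FGF18 act on osteoblast and cartilage precursors through FGFR1, FGFR2 and FGFR3, while FGF7 and FGF10 are stromal signals best known for acting on epithelium through the IIIb splice form of FGFR2.

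Fgfr1 and Fgf7 dominated the family in all 3 media. In C2S libraries the order of mean levels was Fgfr1, Fgf7, Fgf10, Fgf2, Fgfr2, Fgf18 and Fgfr3, and the only neighbours whose libraries overlapped were Fgf10 and Fgf2. In OM libraries Fgfr2 came after Fgf7 and overlapped with Fgf10, and Fgf2 followed. In PM libraries Fgf7 and Fgfr1 overlapped at the top, followed by Fgfr2, Fgf10 and Fgf2 without overlap. Fgf18 and Fgfr3 were the lowest of the 7 in each medium. Genes were tested where they reached 1 FPKM in at least 3 libraries, which 13049 genes and 6 of the 7 FGF genes did.

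**Figure D1:**
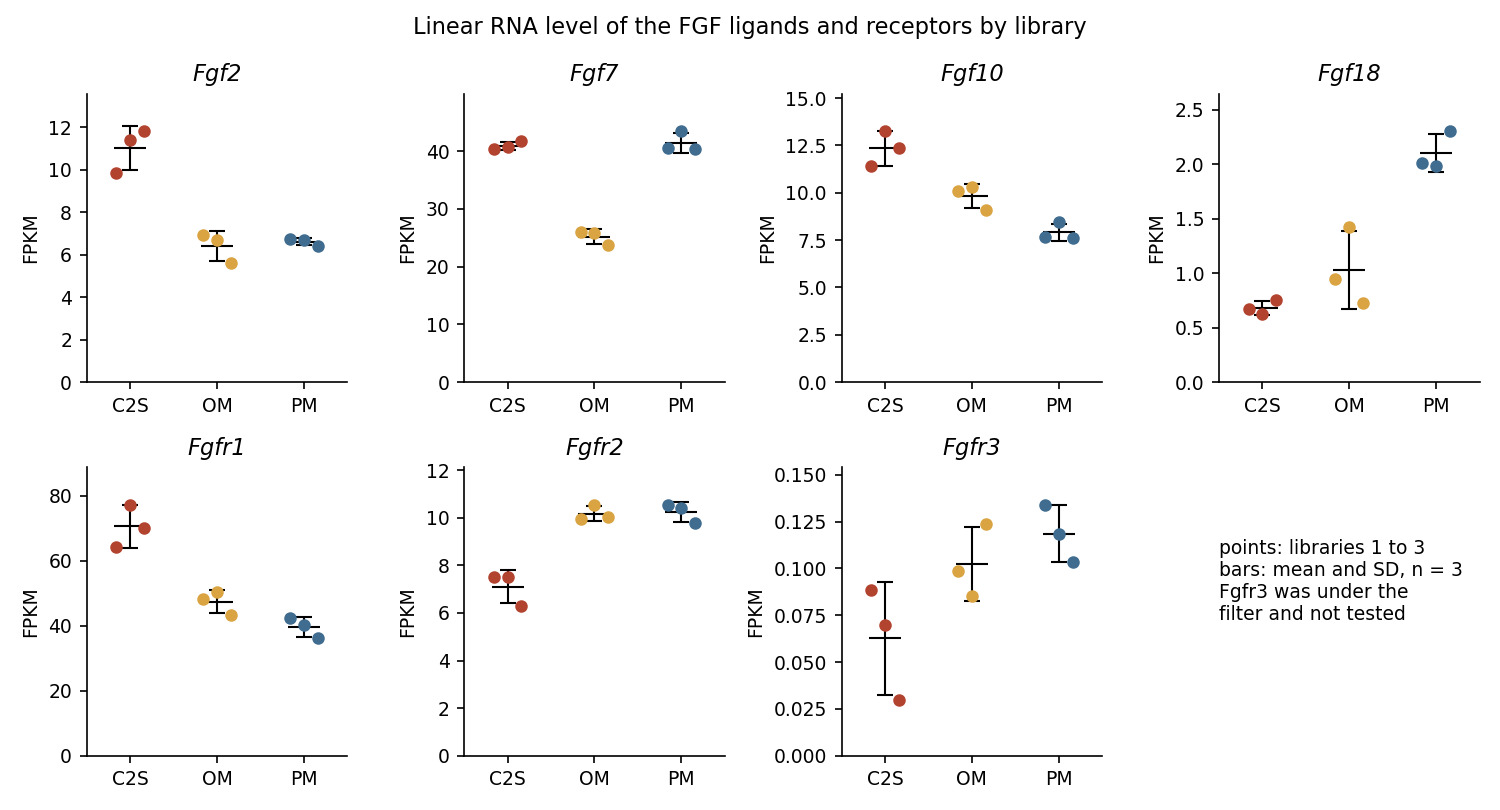
FPKM of each gene (vertical axes, each starting at 0) in the 3 libraries of C2S, OM and PM (points), with the mean and SD of the group (bars). Fgf2 and Fgfr1 are highest in C2S, Fgf7 is lowest in OM, Fgfr2 is lowest in C2S and Fgf18 is highest in PM.

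Fgf2 (ENSMUSG00000037225, chr3:37348346-37410108 on the plus strand, GRCm38) encodes basic FGF, a mitogen for stromal cells that also keeps many stem cells proliferating in culture. It was at 9.84, 11.4 and 11.8 FPKM in the C2S libraries, at 6.94, 6.72 and 5.60 in OM and at 6.73, 6.70 and 6.43 in PM. Every C2S library lay above every other library, and OM and PM overlapped. Fgf2 rose in C2S against OM, averaging 11.0 ± 1.04 FPKM in C2S and 6.42 ± 0.719 in OM (SD, n = 3 each), which is 0.70 ± 0.083 on the log2 scale (SE, limma adjusted p = 0.000896). It was also higher in C2S than in PM, by 0.65 ± 0.083 on the log2 scale (limma adjusted p = 0.000152). OM against PM gave -0.04 ± 0.083 (limma adjusted p = 0.679), with a 95% interval from -0.23 to 0.14. An exon of Fgf2 overlaps Nudt6 on the opposite strand, and no source used here says whether reads were counted by strand, so reads of the pair cannot be told apart. Nudt6 itself averaged 3.75 ± 0.171 FPKM in C2S, 3.77 ± 0.309 in OM and 2.32 ± 0.0879 in PM.

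Fgf7 (ENSMUSG00000027208, chr2:126034658-126091185, plus strand), the keratinocyte growth factor gene, was the most abundant ligand. Its levels were 40.3, 40.8 and 41.7 FPKM in C2S, 26.0, 25.8 and 23.7 in OM, and 40.6, 43.4 and 40.3 in PM. The 3 OM libraries were below all others, and C2S and PM overlapped. Against PM, OM fell by 0.70 ± 0.048 on the log2 scale (limma adjusted p = 2.69e-06), with means of 25.2 ± 1.28 FPKM in OM and 41.4 ± 1.74 in PM. Against OM, C2S was higher by 0.68 ± 0.048 (limma adjusted p = 9.12e-05). The direct comparison of C2S with PM gave -0.02 ± 0.048 (limma adjusted p = 0.782), and its 95% interval ran from -0.12 to 0.09, so a difference within those bounds was not resolved. Fgf7 thus differed in OM from both other media, in which its means were 40.9 ± 0.694 FPKM (C2S) and 41.4 ± 1.74 FPKM (PM).

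Fgf10 (ENSMUSG00000021732, chr13:118669791-118792115, plus strand) belongs to the same subfamily as Fgf7 and directs branching of lung and limb bud outgrowth. It was at 11.4, 13.3 and 12.4 FPKM in C2S, at 10.1, 10.3 and 9.11 in OM and at 7.68, 8.45 and 7.63 in PM. No library of a group overlapped with those of another, and the order was C2S, then OM, then PM. C2S exceeded PM by 0.58 ± 0.068 on the log2 scale (limma adjusted p = 8.55e-05). The step between OM and PM was 0.28 ± 0.068 (limma adjusted p = 0.00651), and it was not called when libraries were scaled to the total without the 10 most abundant genes (0.20, adjusted p = 0.0677). The step between C2S and OM was 0.30 ± 0.068 (limma adjusted p = 0.0148), and this call was lost without C2S replicate 2 (adjusted p = 0.0551) or without C2S replicate 3 (adjusted p = 0.0553). The adjusted p of that step ranged from 0.00980 to 0.0553 over the 18 alternatives. The antisense gene Gm16263, whose exons overlap those of Fgf10, lay between 1.70 and 3.95 FPKM in the 9 libraries.

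Fgf18 (ENSMUSG00000057967, chr11:33117430-33147400, minus strand), a ligand for chondrocyte and osteoblast precursors, was scarce. Its values were 0.667, 0.628 and 0.756 FPKM in C2S, 0.950, 1.43 and 0.725 in OM and 2.01, 1.99 and 2.30 in PM, from 23 to 74 reads per library. Every PM library was above all others, and C2S and OM overlapped. Only the 3 PM libraries and OM replicate 2 reached 1 FPKM, so the gene entered the fit through the group in which it was high, and its calls against PM carry no weight of their own. Its mean in C2S was 0.325 times that in PM, and its mean in OM was 0.492 times that in PM. The log2 differences were -0.88 ± 0.12 in C2S against PM and -0.62 ± 0.12 in OM against PM. These use log2(FPKM + 1), which shrinks changes of low genes: with a pseudocount of 0.1 they were -1.49 and -1.002. C2S against OM gave -0.26 ± 0.12 (limma adjusted p = 0.158).

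Fgfr1 (ENSMUSG00000031565, chr8:25513654-25575718, plus strand) encodes the main FGF receptor of mesenchymal cells and was the most abundant receptor. It was at 64.3, 77.3 and 70.3 FPKM in C2S, at 48.2, 50.5 and 43.5 in OM and at 42.5, 40.2 and 36.4 in PM. The groups did not overlap, with C2S highest and PM lowest. C2S averaged 70.6 ± 6.52 FPKM and OM 47.4 ± 3.57, a ratio of 1.49 and a log2 difference of 0.56 ± 0.084 (limma adjusted p = 0.00241). Against PM, which averaged 39.7 ± 3.08, C2S was higher by 0.81 ± 0.084 (limma adjusted p = 3.85e-05). OM exceeded PM by 0.25 ± 0.084 (limma adjusted p = 0.0309), a call that depended on single libraries. It was lost without OM replicate 1 (adjusted p = 0.0819), OM replicate 2 (0.0933), PM replicate 2 (0.0613) or PM replicate 3 (0.0933), with no filter on low genes (0.0729) and with the total taken without the top 10 genes (0.209). The lowest adjusted p among the 18 alternatives was 0.0181.

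Fgfr2 (ENSMUSG00000030849, minus strand of chromosome 7), a receptor needed for bone growth, was lower in C2S, where Fgfr1 was higher. Its levels were 7.49, 7.50 and 6.31 FPKM in C2S, 9.97, 10.5 and 10.0 in OM and 10.6, 10.4 and 9.78 in PM. The 3 C2S libraries lay below all others, and OM and PM overlapped. In C2S against OM Fgfr2 fell by 0.47 ± 0.065 on the log2 scale (limma adjusted p = 0.00179), with means of 7.10 ± 0.687 FPKM in C2S and 10.2 ± 0.307 in OM. C2S against PM gave a like fall, -0.48 ± 0.065 (limma adjusted p = 0.000234). OM against PM was -0.01 ± 0.065 (limma adjusted p = 0.919), with a 95% interval from -0.16 to 0.14. GENCODE M21 gives the gene the span chr7:130162451-133123350 because of a read-through transcript that shares exons with Ctbp2 on the same strand. Ctbp2 was at 6.85 to 8.26 FPKM in the 9 libraries, and no source used here says how the shared exons were counted. Gene values also do not separate the IIIb and IIIc splice forms of the receptors, which differ in the ligands they bind.

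Fgfr3 (ENSMUSG00000054252, chr5:33721674-33737068, plus strand), a brake on cartilage growth, was close to undetected. It had 0.0887, 0.0699 and 0.0297 FPKM in C2S, 0.0985, 0.0851 and 0.124 in OM and 0.134, 0.118 and 0.104 in PM, from 4 to 19 reads per library. C2S and OM overlapped, as did OM and PM, and C2S lay below PM. The gene was under the filter and was not tested. With no filter, over 30617 genes, limma gave adjusted p = 0.0598 for C2S against PM, 0.286 for C2S against OM and 0.612 for OM against PM.

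**Figure D2:**
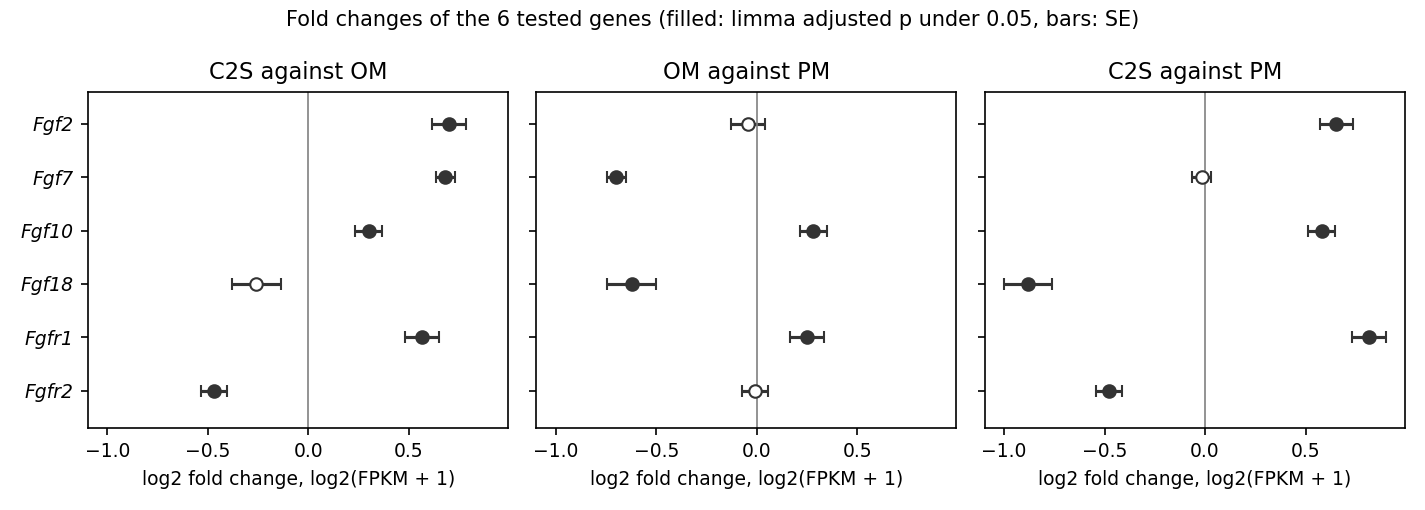
Log2 fold change on the log2(FPKM + 1) scale (horizontal axes) of the 6 tested genes in C2S against OM, OM against PM and C2S against PM, with SE bars and filled points for limma adjusted p under 0.05. Fgf2, Fgf7, Fgf10 and Fgfr1 are above 0 and Fgfr2 is below 0 in C2S against OM, and Fgf7 is at -0.70 in OM against PM.

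In C2S against OM, which asks what the silicate added to osteogenic medium, 4 of the 6 tested FGF genes were higher (Fgf2, Fgf7, Fgf10 and Fgfr1), 1 was lower (Fgfr2) and Fgf18 did not pass. Of all 13049 tested genes 22% passed in this comparison, 10.6% higher and 11.5% lower. In OM against PM, the effect of the osteogenic supplements, 2 were higher (Fgf10 and Fgfr1), 2 were lower (Fgf7 and Fgf18) and 2 did not pass (Fgf2 and Fgfr2), against 54.8% of all genes, of which 27.1% were higher and 27.7% lower, so the 4 calls among 6 genes are near that background. Without Fgf18, which entered the fit through PM, 2 were higher and 1 was lower. In C2S against PM, 3 were higher (Fgf2, Fgf10 and Fgfr1), 2 were lower (Fgf18 and Fgfr2) and Fgf7 did not pass, where 56% of all genes passed, 27.6% higher and 28.4% lower. Without Fgf18 these were 3 higher and 1 lower. The comparisons share libraries, so their values for a gene are not independent. In bulk RNA, fewer cells of a type and less RNA per cell cannot be told apart.

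The receptor RNA shifted toward Fgfr1 in C2S. Fgfr1 made up 90.7 ± 1.17% of the summed FPKM of Fgfr1 to Fgfr4 in C2S, 82.1 ± 0.942% in OM and 79.2 ± 0.640% in PM (SD, n = 3 each), and the libraries of the 3 groups did not overlap. Almost all of the rest was Fgfr2, at 9.16 ± 1.13% in C2S, 17.7 ± 0.889% in OM and 20.5 ± 0.642% in PM. The ratio of Fgfr1 to Fgfr2 FPKM was 8.58, 10.3 and 11.1 in the C2S libraries, 4.84, 4.79 and 4.33 in OM and 4.03, 3.86 and 3.72 in PM. The lowest C2S ratio was therefore above the highest of the other 6 libraries, and OM and PM did not overlap either. With 3 libraries against 3, an exact permutation test of such a ratio cannot go below p = 0.1 (2-sided), so none is given. The summed receptor RNA was 77.8 ± 6.59 FPKM in C2S, 57.7 ± 3.76 in OM and 50.1 ± 3.50 in PM.

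Ligand RNA had another order. The 16 Fgf genes with values, receptors left out and not all of them receptor ligands, summed to 66.0 ± 2.47 FPKM in C2S, 43.3 ± 2.92 in OM and 59.4 ± 2.23 in PM. Fgf7 held 62.0 ± 1.60% of it in C2S, 58.2 ± 1.13% in OM and 69.7 ± 0.307% in PM. Fgf10 held 18.7 ± 0.916% in C2S, 22.7 ± 0.188% in OM and 13.3 ± 0.270% in PM, and Fgf2 held 16.7 ± 0.975%, 14.8 ± 0.732% and 11.2 ± 0.366% in C2S, OM and PM. The ratio of Fgf7 to Fgf10, 2 ligands of the same receptor form, was 3.53, 3.08 and 3.37 in C2S, 2.58, 2.50 and 2.60 in OM and 5.29, 5.14 and 5.28 in PM. The 3 groups did not overlap in this ratio, with PM highest and OM lowest.

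**Figure D3:**
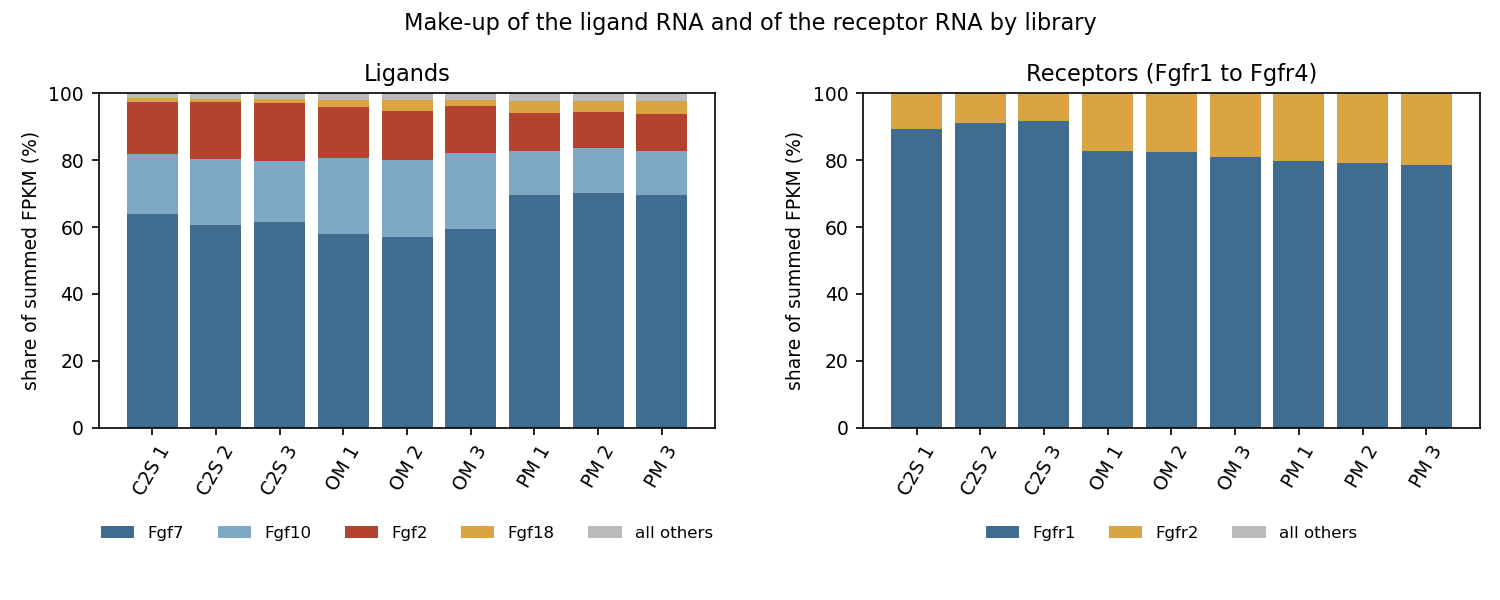
Share of the summed FPKM (vertical axes, percent) held by each FGF ligand (left) and each FGF receptor (right) in the 9 libraries, C2S, OM and PM from left to right. Fgfr1 takes 89.4% to 91.7% of the receptor RNA in C2S, 81.0% to 82.7% in OM and 78.6% to 79.9% in PM, and Fgf7 takes the largest part of the ligand RNA in each library.

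The further Fgf genes with values and Fgfr4 were low, but Fgfrl1 was not. Of 18 further Fgf genes listed, 12 had values and 0 reached the filter. Their highest values were 0.480 FPKM for Fgf9, 0.436 for Fgf1 and 0.309 for Fgf17. Fgf1 averaged 0.344 ± 0.0795 FPKM in C2S, 0.113 ± 0.0480 in OM and 0.152 ± 0.0146 in PM, from 8 to 55 reads per library, and Fgf9 averaged 0.115 ± 0.0164, 0.136 ± 0.0238 and 0.411 ± 0.0603 in C2S, OM and PM. Fgf3, Fgf4, Fgf5, Fgf6, Fgf13 and Fgf15 were not analysed here. Fgfr4 did not exceed 0.0203 FPKM, and the klotho co-receptors Kl and Klb, which hormone-like FGFs need, did not exceed 0.0185. Fgfrl1, a receptor without a kinase domain, was at 15.4, 15.3 and 13.9 FPKM in C2S, 13.0, 14.4 and 12.8 in OM and 14.3, 14.3 and 12.5 in PM, and it passed in no comparison.

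Besides the 18 further Fgf genes, 7 lists of pathway genes held 68 tested genes, and the 4 lists downstream of the receptors held 41 genes, of which 40 were tested. A gene with a library under 1 FPKM in the lower of the 2 groups compared could enter the fit through the group in which it was high, so such genes are named below without a p, and the counts are also given without them. The inhibitors that ERK signalling induces were higher in C2S than in OM for 7 of 10 tested genes, with 0 lower and 3 not passing, and a median log2 change of 0.54 against -0.01 for all tested genes, of which 22% passed. Dusp6, an ERK phosphatase, was at 72.7, 69.5 and 68.1 FPKM in C2S, 31.8, 32.5 and 32.2 in OM and 14.3, 16.0 and 13.7 in PM, with no overlap between groups. It rose by 1.10 ± 0.054 on the log2 scale in C2S against OM (limma adjusted p = 1.61e-05) and by 1.08 ± 0.054 in OM against PM (limma adjusted p = 3.56e-07). Spry4, a Sprouty protein gene that dampens RAS activation, was at 7.44, 9.04 and 7.68 FPKM in C2S, 2.27, 2.37 and 2.07 in OM and 0.993, 0.935 and 0.884 in PM, and it rose by 1.48 ± 0.077 in C2S against OM (limma adjusted p = 1.96e-05). All 3 PM libraries of Spry4 were under 1 FPKM, and its log2 difference in C2S against PM was 2.22. Dusp4, a nuclear phosphatase of ERK, rose by 1.26 ± 0.14 in C2S against OM (limma adjusted p = 0.000553).

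In OM against PM the same list had 4 higher, 2 lower and 4 not passing of 10, with a median of 0.08 against 0.00 for all tested genes, of which 54.8% passed. Without Spry3 and Spry4, which were under 1 FPKM in every PM library, 2 were higher and 2 lower, with a median of -0.01. The falls were Il17rd, a membrane inhibitor of FGF receptors, at -0.37 ± 0.077 (limma adjusted p = 0.00281) and Spry2, at -0.15 ± 0.051 (limma adjusted p = 0.0352). The Spry2 call was lost in 8 of the 18 alternatives, among them those without OM replicate 1 (0.126), OM replicate 3 (0.0523), PM replicate 2 (0.119), PM replicate 3 (0.0766), C2S replicate 2 (0.0502) and C2S replicate 3 (0.0549). In C2S against PM 8 were higher, 1 was lower and 1 did not pass, with a median of 0.50, where 56% of all genes passed. Without Spry3 and Spry4 6 were higher and 1 was lower. Spry1 was not tested (0.788 ± 0.150 FPKM in C2S, 0.170 ± 0.0655 in OM and 0.589 ± 0.0116 in PM).

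Of 9 genes known as targets of FGF and ERK signalling, 6 were higher, 1 was lower and 2 did not pass in C2S against OM, with a median log2 change of 0.67. In OM against PM 6 were higher, 0 were lower and 3 did not pass (median 0.71), and in C2S against PM 7 were higher, 0 were lower and 2 did not pass (median 1.28). The shares of all genes that passed were 22%, 54.8% and 56% in C2S against OM, OM against PM and C2S against PM. Etv1 was at 0.310 to 0.334 FPKM in PM and at 0.953 in OM replicate 3, and without it 5, 5 and 6 genes were higher in these comparisons, with medians of 0.63, 0.66 and 1.13. The ETS factor gene Etv4 was at 11.5, 13.0 and 11.9 FPKM in C2S, 6.13, 6.08 and 4.60 in OM and 3.09, 3.74 and 2.22 in PM, with no overlap between groups. Its log2 fold change was 1.00 ± 0.14 in C2S against OM (limma adjusted p = 0.00197). The AP-1 subunit gene Fosl1 was at 15.6, 17.8 and 14.2 FPKM in C2S, 4.59, 5.02 and 4.88 in OM and 2.93, 2.10 and 2.06 in PM. It rose by 2.33 ± 0.11 in C2S against PM (limma adjusted p = 2.08e-07). The cyclin D1 gene Ccnd1 had its largest step in OM against PM, 1.39 ± 0.10 (limma adjusted p = 4.13e-06).

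Egr1, an immediate-early gene, was the exception in that list. It averaged 20.3 ± 1.52 FPKM in C2S, 26.8 ± 3.11 in OM and 22.3 ± 3.60 in PM, a log2 change of -0.38 ± 0.12 in C2S against OM (limma adjusted p = 0.0477). Over the 18 alternatives its adjusted p reached 0.137 (without C2S replicate 3), and leaving out C2S replicate 1 (0.131), C2S replicate 2 (0.0657), OM replicate 2 (0.126), OM replicate 3 (0.119) or PM replicate 2 (0.0677) also ended the call. So did applying no filter on low genes (0.126), scaling to the total without the top 10 genes (0.0853) and fitting no mean trend (0.0574). The other immediate-early gene listed, Ier2, did not pass in C2S against OM (-0.31). ERK also receives input from other receptors, and phosphorylation was not measured.

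**Figure D4:**
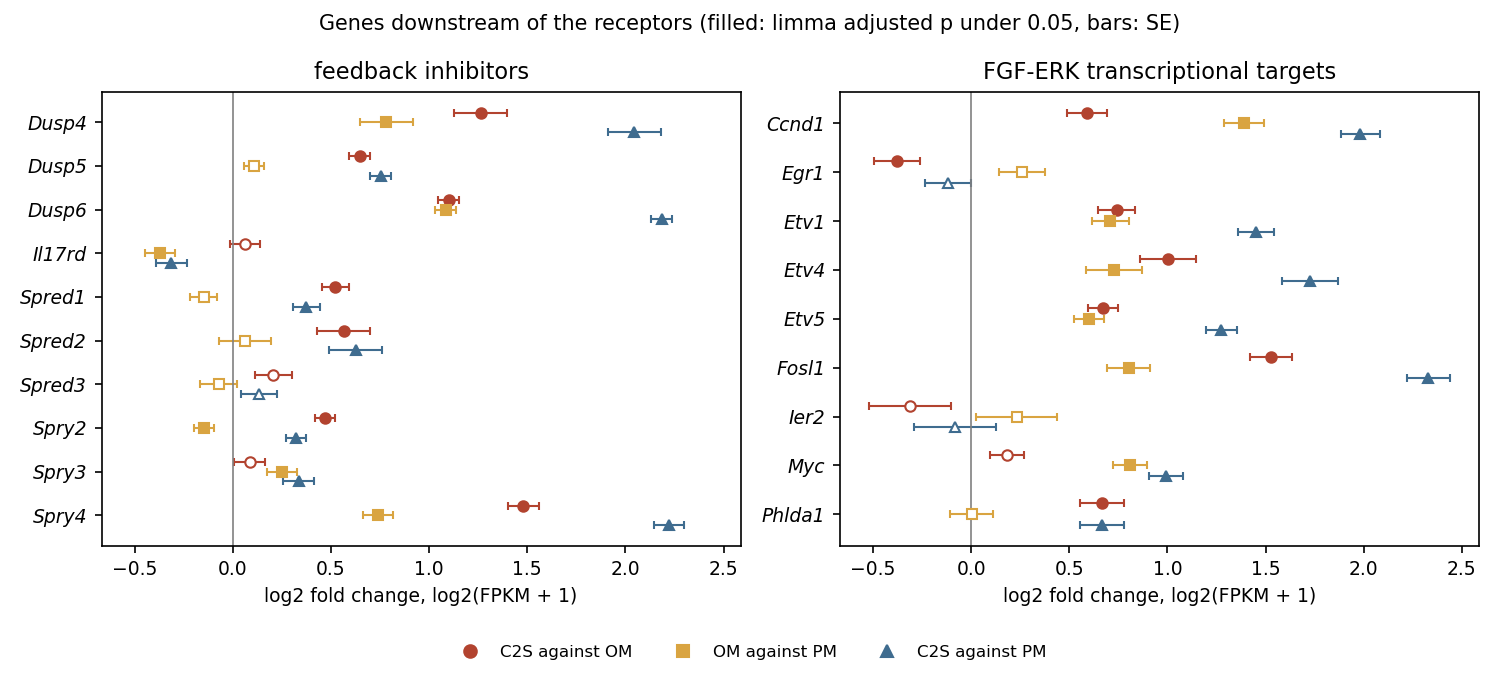
Log2 fold change on the log2(FPKM + 1) scale (horizontal axes) of the 10 tested feedback inhibitors (left) and 9 targets (right) in C2S against OM (circles), OM against PM (squares) and C2S against PM (triangles), with SE bars and filled symbols for limma adjusted p under 0.05. Dusp6, Dusp4, Spry4, Etv1, Etv4, Etv5 and Fosl1 are above 0 in each comparison, while Egr1 is below 0 in C2S against OM.

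Adaptors and kinases between the receptors and ERK were called about as often as other genes. Over both lists 6 of 21 tested genes passed in C2S against OM (28.6%, against 22% of all genes), 13 in OM against PM (61.9%, against 54.8%) and 13 in C2S against PM (61.9%, against 56%). Of 11 receptor-proximal adaptors, 2 were higher, 1 was lower and 8 did not pass in C2S against OM. In OM against PM 3 were higher and 5 lower, and in C2S against PM 3 were higher and 4 lower. The phosphatase gene Ptpn11, which links FRS2 to RAS, was higher in C2S than in OM by 0.28 ± 0.050 (limma adjusted p = 0.00566) and was at -0.47 ± 0.050 in OM against PM (limma adjusted p = 5.37e-05). The docking protein gene Gab1 was higher in OM than in PM by 0.76 ± 0.070 (limma adjusted p = 1.92e-05), and Grb2, the adaptor that carries SOS to the receptor, was at -0.50 ± 0.061 (limma adjusted p = 0.000126). Among 10 genes of the RAS-ERK core, 2 were higher, 1 was lower and 7 did not pass in C2S against OM. In OM against PM 1 was higher and 4 were lower, led by Braf at -0.57 ± 0.10 (limma adjusted p = 0.00132). In C2S against PM 2 were higher and 4 were lower, with a median of -0.12. Of the 6 calls in these 2 lists in C2S against OM, 3 were lost with some library left out: Shc1 without C2S replicate 3 (adjusted p = 0.0675), Araf without C2S replicate 2 (0.0558) or 3 (0.0624), and Frs3 at up to 0.0946, without C2S replicate 1, and also without C2S replicate 2 or any 1 of the OM libraries.

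Proteoglycans that carry heparan sulfate, the co-factor of FGF binding, were mostly lower in OM and in C2S than in PM. Of 10 tested proteoglycans and FGF binders, 1 was higher and 8 were lower in OM than in PM, with a median log2 change of -0.75 against 0.00 for all tested genes, of which 27.1% were higher and 27.7% lower. Without Sdc3 and the carrier Fgfbp3, which were under 1 FPKM in every C2S and OM library and entered the fit through PM, 1 was higher and 6 were lower, with the same median. The glypican Gpc4 was at 10.8, 9.95 and 8.54 FPKM in OM and at 38.9, 30.0 and 30.5 in PM (-1.66 ± 0.12, limma adjusted p = 3.17e-06). Gpc1 was at -1.15 ± 0.058 (limma adjusted p = 3.69e-07). The syndecan Sdc3 was at 0.320 to 0.623 FPKM in OM and 1.81 to 2.27 in PM. Sdc4, the most abundant of them, went the other way, at 427, 404 and 444 FPKM in C2S, 281, 286 and 279 in OM and 136, 155 and 140 in PM, with no overlap between groups. It rose by 0.97 ± 0.058 in OM against PM (limma adjusted p = 1.19e-06) and by 0.59 ± 0.058 in C2S against OM (limma adjusted p = 0.000421), where it was the only one of the 10 to pass. In C2S against PM 1 was higher and 8 were lower, with a median of -0.74, and without Sdc3 and Fgfbp3 6 were lower.

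Of 14 tested genes that build or edit heparan sulfate, 3 were higher and 7 lower in OM than in PM, 71.4% of the list where 54.8% of all genes passed. Hs6st2, which adds 6-O-sulfate, was at 5.84, 5.99 and 4.79 FPKM in OM and at 34.2, 34.8 and 33.1 in PM (-2.43 ± 0.070, limma adjusted p = 1.02e-08). Hs3st1, a 3-O-sulfotransferase gene, was at 3.11 to 3.31 FPKM in C2S, 3.53 to 3.62 in OM and 0.544 to 0.960 in PM. It was under 1 FPKM in every PM library and entered the fit through the other groups, and without it 2 were higher and 7 lower in OM against PM. In C2S against PM 4 were higher and 6 lower, again 71.4%, where 56% of all genes passed, and without Hs3st1 3 were higher. In C2S against OM 3 were higher (Extl3, Hs6st1 and Ext1), 0 were lower and 11 did not pass, 21.4% of the list where 22% of all genes passed, and each of the 3 calls was lost without C2S replicate 2 (adjusted p = 0.0735, 0.107 and 0.0841) and without C2S replicate 3 (0.0641, 0.117 and 0.0648), as well as without some OM libraries. Among 4 tested co-receptors, 1 was higher in C2S than in OM (25%, against 22% of all genes). This was the adhesion protein gene Flrt2, which can bind FGF receptors, at 0.36 ± 0.059 (limma adjusted p = 0.00395). In OM against PM 0 were higher and 3 were lower (75%, against 54.8% of all genes). In C2S against PM 0 were higher and 2 were lower (50%, against 56%). These 2 were the N-cadherin gene Cdh2 at -0.50 ± 0.075 (limma adjusted p = 0.000404) and Flrt3. Flrt3 was at 0.798 to 0.969 FPKM in C2S, 0.932 to 1.03 in OM and 2.52 to 2.65 in PM and entered the fit through PM. Without Flrt3, 2 were lower in OM against PM and 1 in C2S against PM.

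Summed levels of markers of other cell types also differed between the media, in more than 1 pattern, and their part in the FGF results was not tested. Over 8 osteoblast markers the summed level was 178 to 232 FPKM in C2S, 83.8 to 115 in OM and 23.6 to 32.0 in PM, of which most was Spp1, and 3 of the 8 were at 1 FPKM or more in each group. The 6 adipocyte markers with values summed to 121 to 135 FPKM in C2S, 93.5 to 101 in OM and 220 to 243 in PM, most of it Lpl, with Plin1 at 0.0112 or less. Lpl averaged 94.1 ± 6.34 FPKM in C2S, 71.2 ± 2.88 in OM and 224 ± 12.8 in PM. Of the others, Pparg was at 15.1 ± 0.543 FPKM in C2S, 8.86 ± 0.707 in OM and 2.13 ± 0.161 in PM, and Fabp4 at 17.4 ± 1.21, 15.7 ± 1.19 and 0.432 ± 0.0861 in C2S, OM and PM. Against PM both went the opposite way to Lpl, although Fabp4 was under 1 FPKM in every PM library. Of 4 tested adipocyte markers, 2 were higher and 1 lower in OM than in PM (75%, against 54.8% of all genes). In C2S against PM 3 were higher and 1 lower (100%, against 56%). Fabp4 entered the fit through C2S and OM. Without it 1 was higher and 1 lower in OM against PM, and 2 were higher and 1 lower in C2S against PM. Chondrocyte markers summed to 12.3 to 13.8 FPKM in C2S, 12.7 to 14.5 in OM and 4.73 to 5.61 in PM. Most of this sum was Sox5 (3.04 to 11.6 FPKM in the 9 libraries), and Acan was at 0.0105 or less. Macrophage markers summed to 37.3 to 44.1 FPKM in C2S, 26.6 to 32.2 in OM and 17.7 to 19.9 in PM, most of it Cd14 (37.4 ± 3.31 FPKM in C2S, 27.4 ± 2.90 in OM and 11.5 ± 1.01 in PM), while Adgre1 did not exceed 0.00790. The other tested macrophage markers were lower in C2S and OM than in PM. Lyz2 was at 0.549 ± 0.203 FPKM in C2S, 0.410 ± 0.148 in OM and 4.04 ± 0.704 in PM, and it entered the fit through PM. Cd68 was at 1.73 ± 0.141, 2.03 ± 0.00659 and 3.19 ± 0.197 in C2S, OM and PM. Endothelial markers summed to 2.80 to 2.88 FPKM in C2S, 2.10 to 2.52 in OM and 1.05 to 1.50 in PM, without overlap between groups. Epithelial markers summed to 0.357 or less in C2S, 0.133 or less in OM and 0.278 or less in PM, with Epcam at 0.0290 FPKM or less in the 9 libraries.

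The circRNA tables list closed RNA circles by the back-splice junction, where the end of one exon is joined to the start of the same or an earlier exon. Of 6614 circRNAs, 9 lay on the strand of an FGF gene and had both ends at annotated exon ends, 3 in Fgfr1 and 6 in Fgfr2. The other 5 FGF genes had none listed. A further 3 circRNAs name both Fgfr2 and Zranb1, but they lie on the opposite strand and near Zranb1, within the long annotated span of Fgfr2, and were not counted. The values are RPM of back-splice reads, whole multiples of 1 step per library, with a smallest listed value of 2 reads, so an unlisted junction can hold fewer reads or be uncalled. Only the 2 ends of a circle are seen, and the exons between them are taken from the transcript.

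The most abundant of the 9 was a circle of a single exon, exon 3 of Fgfr1 (chr8:25555508-25555774, GRCm38, plus strand), 267 bases and all coding. In FGFR1 this exon encodes the first immunoglobulin-like domain and is skipped in the shorter receptor form. The exon is shown whole because the circle consists of it, from the GENCODE M21 transcript, with capitals for the 20 bases at each end, which the back-splice joins.
circ_1289 of Fgfr1: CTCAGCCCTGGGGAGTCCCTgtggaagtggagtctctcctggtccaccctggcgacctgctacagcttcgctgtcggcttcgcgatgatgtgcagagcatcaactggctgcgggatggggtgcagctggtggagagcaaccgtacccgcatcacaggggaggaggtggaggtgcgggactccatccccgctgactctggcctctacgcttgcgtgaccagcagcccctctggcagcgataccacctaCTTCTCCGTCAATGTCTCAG

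Its counterpart in Fgfr2 (chr7:130242378-130242644) is also 267 bases long, and 52.2% of the 270 columns of their alignment were identical. That exon was the first of 3 Fgfr2 circRNAs, and 4 of the 6 Fgfr2 circles, with 94.3% of their reads, shared the exon end at position 130218998. The junctions with the most reads are shown to let the joins be compared, with the last 25 bases of the circle's final exon in lower case and the first 25 bases of its first exon in capitals. The first of these Fgfr1 lines joins an exon to itself, and the Fgfr2 lines share their lower-case part.
circ_1289 of Fgfr1: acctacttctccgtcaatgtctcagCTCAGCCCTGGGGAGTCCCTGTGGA
circ_1417 of Fgfr1: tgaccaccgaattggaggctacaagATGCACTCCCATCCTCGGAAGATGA
circ_721 of Fgfr2: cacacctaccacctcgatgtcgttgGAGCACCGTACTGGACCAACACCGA
circ_2531 of Fgfr2: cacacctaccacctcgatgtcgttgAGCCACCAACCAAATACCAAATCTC
circ_2422 of Fgfr2: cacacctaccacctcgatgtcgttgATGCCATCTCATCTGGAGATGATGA

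The circle of Fgfr1 exon 3 had 19, 27 and 12 reads in the C2S libraries, 19, 14 and 19 in OM and 13, 15 and 14 in PM. With 152 reads in all it ranked 154 among the 6614 circRNAs, and it was the only one of the 9 listed in each library. The circle of exons 4 and 5 of Fgfr1 (chr8:25557731-25558243) had 7, 3 and 2 reads in C2S, 6, 0 and 3 in OM and 2, 4 and 6 in PM, and the groups overlapped. The leading Fgfr2 circle, circ_721 (chr7:130218998-130228792), had 11, 4 and 2 reads in C2S, 0, 3 and 7 in OM and 0, 3 and 7 in PM. The next, circ_2531 (chr7:130218998-130242644), had 3, 3 and 5 reads in C2S, 2, 4 and 5 in OM and 0, 5 and 0 in PM, and circ_2422 (chr7:130218998-130241277) had 16 reads in 5 libraries. The other 4 circles, circ_1590, circ_10662, circ_11377 and circ_11955, were each listed in 1 library with 2 or 3 reads.

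Summed over its 3 circles, Fgfr1 had 70 back-splice reads in C2S, or 1326 RPM (exact 95% Poisson interval 1034 to 1676), 61 in OM, or 1025 RPM (784 to 1317), and 56 in PM, or 1261 RPM (953 to 1638). The intervals overlap, and they cover counting error only. Linear Fgfr1 in the same libraries averaged 70.6 FPKM in C2S, 47.4 in OM and 39.7 in PM. The 6 circles of Fgfr2 summed to 35 reads in C2S, or 663 RPM (462 to 922), 31 in OM, or 521 RPM (354 to 739), and 21 in PM, or 473 RPM (293 to 723), where linear Fgfr2 averaged 7.10, 10.2 and 10.2 FPKM in C2S, OM and PM. Differences between media were not tested for the circles of either gene, whose reads were few. Total back-splice reads per library ranged from 13691 to 20769.

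**Figure D5:**
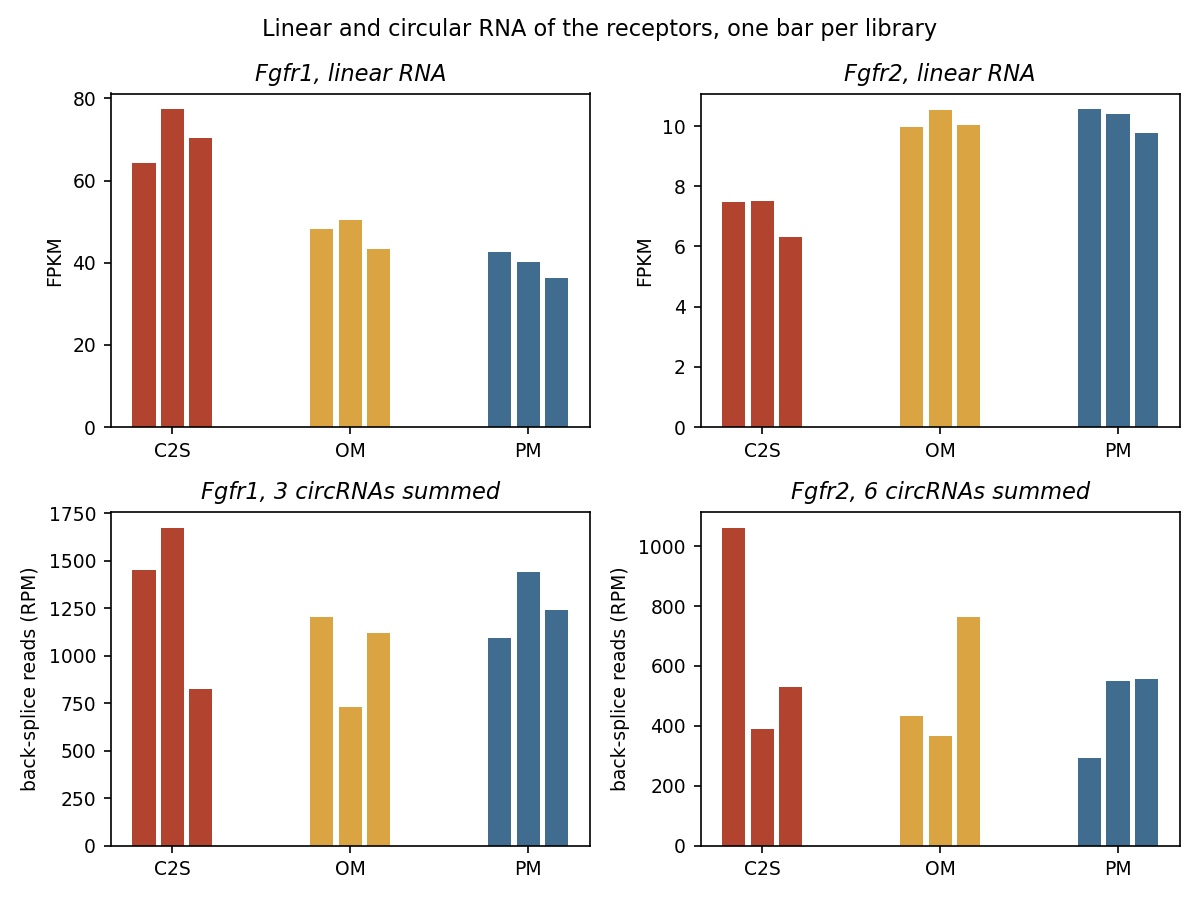
Linear FPKM (top) and summed back-splice reads in RPM (bottom) of Fgfr1 and Fgfr2, 1 bar per library in C2S, OM and PM. The linear bars of Fgfr1 are highest and those of Fgfr2 lowest in C2S, while the bars of circular RNA overlap between the 3 media.

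Genes whose pattern lay closest to each FGF gene were sought among all tested genes, by the root mean square difference of log2(FPKM + 1), centred per gene, over the 9 libraries. Nearest to Fgf2 were Fhl3 (0.0557), Rasa2 (0.0780) and the integrin gene Itgb3 (0.0811). Those of Fgf7 were Chst11 (0.0706), a chondroitin sulfotransferase gene, Eaf1 (0.0759) and Emp1 (0.0846). Chst11 averaged 8.11 FPKM in C2S, 5.36 in OM and 8.52 in PM. Those given for Fgf10 are Zfp36l2 (0.0425) and Rcl1 (0.0527), and Fgf18 had Pard6b (0.0893), Paqr8 (0.106) and Aktip (0.106). Fgfr1 was closest to Vma21 (0.0697), Parvb (0.0704) and Adgre5 (0.0740), and Fgfr2 to Cryl1 (0.0600), Fbxo32 (0.0663) and Ttc30b (0.0684). None of these genes belonged to the lists above. Parvb averaged 1.31 FPKM in C2S, 0.570 in OM and 0.414 in PM, and Paqr8 averaged 0.808, 1.09 and 2.06 in C2S, OM and PM. Both could enter the fit through the group in which they were high. The log2(FPKM + 1) scale shrinks changes of low genes, so the closeness of these 2 carries no weight of its own.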

How the data were processed

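Each library came with a table of linear genes and a table of circRNAs. STAR, HTSeq and RSEM, and the build mm10, are named in the submitters' processing notes without roles or versions. The headers name no unit. Linear values deposited by the authors fit FPKM, since value times the longest GENCODE M21 transcript gave whole reads for 98.5% to 98.8% of low values (tolerance 0.1 reads). The circRNA values deposited by the authors fit RPM of back-splice reads and are described without a test. The planned count test was not used because the files hold normalized values.

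Genes that reached 1 FPKM in 3 or more libraries entered 1 limma fit (limma 3.58.1, R 4.3.3) on log2(FPKM + 1), over all 9 libraries, with the group as factor, a mean trend and Benjamini-Hochberg adjustment per comparison over 13049 genes (threshold 0.05). The fit was first checked on simulated data. Every adjusted p is limma's, and ± after a log2 change is its SE. The FGF genes and the lists were chosen with earlier results of these data known. From each list and comparison the 3 highest and 3 lowest calls could be named, and other genes were named after their values were seen. Some genes that the rules would name are not reported here. Alternatives covered the pseudocount, filter, scaling, trend, replicate block, 2-group fits and each library left out. Sequences and gene models are from GENCODE M21, aligned with Biopython 1.88.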

Additional observations from a re-analysis of the deposited data

How the results depend on the processing

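Across 18 alternative settings the 18 fold changes of the tested FGF genes gave 321 values. Of these, 312 stayed on their side of the threshold, 9 lost the call and 0 calls reversed direction. All 9 lost calls were of Fgf10 (C2S against OM, OM against PM) and Fgfr1 (OM against PM), with values above. Some changes that were not called did change sign. Fgf2 ran from -0.12 to 0.04 and Fgfr2 from -0.09 to 0.01 in OM against PM, and Fgf7 from -0.10 to 0.02 in C2S against PM. With the total taken without the top 10 genes, 2 of the 6 FGF genes were called in OM against PM, 0 higher and 2 lower. That scaling also gave 2647 higher and 4270 lower calls over all genes in OM against PM, where the fit reported gave 3542 and 3609, and 2735 higher and 4311 lower in C2S against PM, where it gave 3605 and 3706. It shifted the median of all genes by -0.08 in both, and the cause was not tested. Leaving out 1 library at a time gave 1384 to 3213 calls over all genes in C2S against OM, where 2877 were reported, the lowest counts being 1857, 1705 and 1384 with C2S library 1, 2 or 3 left out, and 4 or 5 FGF genes were called. It gave 6076 to 6997 calls in OM against PM with 3 or 4 FGF genes, and 6225 to 7414 in C2S against PM with 5. Of 79 results of the named pathway genes, 12 lost the call in some setting and 0 reversed. Fgf18 could not be fitted where each library had to reach 1 FPKM.

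Groups share replicate numbers in the labels. Same-numbered libraries correlated in their deviations from the group means at -0.09 to 0.40, and differently numbered ones at -0.47 to 0.19. The ranges overlapped, and the same-numbered values were not all above 0.1. The numbers were therefore not taken as pairs, but these values do not settle it. A fit with the replicate block called 2958, 7378 and 7515 genes in C2S against OM, OM against PM and C2S against PM, with 5, 4 and 5 FGF genes. Among the named pathway genes the block ended the calls of Egr1 (adjusted p = 0.0609) and Hs6st1 (0.0577) in C2S against OM. The FGF genes with few reads, Fgf18 and Fgfr3, and all 9 circRNAs are limited by depth.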
